A study of Rattus norvegicus with 6 samples.

Results

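Chemokines of the CXC family that draw neutrophils, their receptors, and the related chemokines Cxcl12 and Cxcl16 were followed in rat heart muscle 6 h after coronary ligation. The set named 9 genes: Cxcl1, Cxcl2, Cxcl3, Cxcl6, Cxcr1, Cxcr2, Cxcl12, Cxcr4 and Cxcl16. A gene was included when an array probe carried a RefSeq accession that a reference gene table assigns to it. This held for 8 of the 9, among 13870 genes with a named probe on the array. Cxcl3 had no mapped probe and was not analysed here. The 8 genes had 10 probes of 1 spot each, 3 of them for Cxcl12. Probes of 7 of the 8 genes were bright enough to be tested, among 10995 genes tested.

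The animals were male Wistar rats, and their age is not given in the sources used here. In the infarct group the left anterior descending coronary artery was ligated, and the border zone of the infarct was found 6 h later with a double stain (arrays M17, M24 and M25). The sham-operated group gave control-zone myocardium labelled with the same 6 h (arrays C4, C5 and C6). No allele, drug or pooling is named in the labels for either group, and the design text gives 1 rat per array. The tissue is a mixture of cells, so fewer cells of a type and less RNA per cell cannot be told apart.

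CXC chemokines are small secreted proteins that steer white blood cells along a gradient. CXCL1, CXCL2, CXCL3 and CXCL6 carry a short motif that lets them bind CXCR2 on neutrophils, and tissue cells and macrophages switch them on after injury through NF-kappaB. CXCL12 is made steadily by stromal and endothelial cells and, through CXCR4, holds neutrophils and progenitors in the bone marrow and draws cells to ischaemic tissue. CXCL16 is made as a membrane-bound protein that binds CXCR6 and can be shed.

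The proximal promoters of Cxcl1, Cxcl2 and Cxcl6 are shown because these neighbouring genes are known NF-kappaB targets, and that of Cxcl12 because its signal moved the other way. Each sequence is the 150 bases before the gene's start, 5′ to 3′ on the gene's strand, from RefSeq on the GRCr8 assembly. Capitals mark a stretch that matches the kappaB consensus on both strands.
Cxcl1 chr14:17479322-17479471 (- strand): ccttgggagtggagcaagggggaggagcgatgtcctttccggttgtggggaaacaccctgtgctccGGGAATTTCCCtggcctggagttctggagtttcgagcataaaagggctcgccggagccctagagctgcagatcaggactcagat
Cxcl2 chr14:17467256-17467405 (- strand): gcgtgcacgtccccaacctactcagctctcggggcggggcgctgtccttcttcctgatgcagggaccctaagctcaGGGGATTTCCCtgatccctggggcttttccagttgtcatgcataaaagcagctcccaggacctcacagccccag
Cxcl6 chr14:17596418-17596567 (- strand): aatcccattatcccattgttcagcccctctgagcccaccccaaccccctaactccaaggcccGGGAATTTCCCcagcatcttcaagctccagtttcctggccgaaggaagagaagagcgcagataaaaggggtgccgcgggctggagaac
Cxcl12 chr4:152060631-152060780 (+ strand): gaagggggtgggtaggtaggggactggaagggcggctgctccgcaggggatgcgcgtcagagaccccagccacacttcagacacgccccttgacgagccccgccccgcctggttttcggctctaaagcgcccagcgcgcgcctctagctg
The capitals lay at -84 to -74 in Cxcl1, -74 to -64 in Cxcl2 and -88 to -78 in Cxcl6, where -1 is the last base before the start. Cxcl1 and Cxcl6 held the same 11 bases, GGGAATTTCCC, and Cxcl2 held GGGGATTTCCC. Over windows from 250 bases before to 50 after the start, kappaB matched in these 3 of the 8 genes of the set in the promoter table, and in 4.18% of all 33469 promoters. The AP-1 motif TGANTCA matched in 0 of the 8 and in 7.33% of all. The C/EBP motif TTNNGNAA matched in Cxcl2, Cxcl6 and Cxcr4 (41.32% of all), and the hypoxia response element cores ACGTG and GCGTG in Cxcl2, Cxcl12 and Cxcr4 (41.64% of all). Both strands were searched. In Cxcl2 the hypoxia cores at -150 to -146 and -145 to -141 stood side by side, no C/EBP or hypoxia match overlapped the capitals, and a match describes letters only.

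A few properties of the arrays bear on every value. The normalized signal is the log2 spot signal minus the 75th percentile of its array, so 0 stands for a probe at that percentile. M17, M24, M25 and C4 share 1 scan, while C5 and C6 were each scanned alone. On the first 4 arrays 73.7% to 78.3% of probes were well above background, against 51.0% on C5 and 52.5% on C6, and 0 spots were saturated. C5 and C6 each measured 11 markers of central nervous tissue above background, and all 11 stood higher there than on every other array. Of 572 probes over 2-fold apart between M17 and M24, 558 had M25 at a value between them (97.6%), while C4 fell between C5 and C6 in 62.3% of 2009 such probes. Whether M25 is a separate animal is thus in doubt, and n counts arrays. Of 17943 probes tested with limma, 1615 were higher (9%) and 1844 lower (10.3%), 19.3% together, at an adjusted p below 0.05. By gene, 9.9% were higher and 11.9% lower, 21.8% together. Over all probes tested the median log2 fold change was -0.027, and other processing moved it to 0.16 (median scaling), -0.35 (normexp background correction) or -0.26 (no filter). Of the calls 46.7% were higher, against 67.6% with median scaling.

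The 2 neutrophil attractants bright in the border zone, Cxcl1 and Cxcl2, rose 46.8-fold and at least 59.8-fold in the border zone. Cxcl12 fell on all 3 of its probes, by 1.52-fold to 2.44-fold, though for its 2 brighter probes leaving out 1 of several arrays ended the call. The neutrophil receptor Cxcr2 and the membrane chemokine Cxcl16 were called higher, and most alternatives ended either call. Cxcl6 and Cxcr4 did not pass, and Cxcr1 was not above background on any array.

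**Figure D1:**
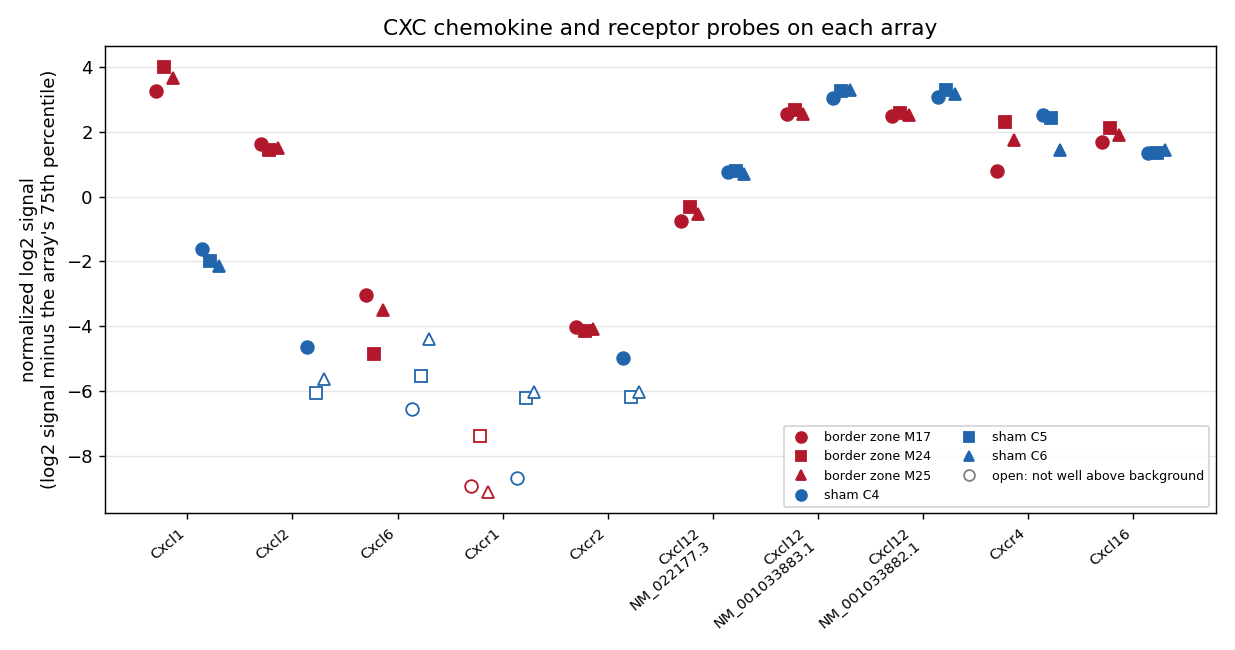
The normalized log2 signal (vertical axis) of the 10 probes (horizontal axis) on the 3 border zone arrays (red) and 3 sham arrays (blue), with open symbols where a spot was not well above background. Cxcl1 and Cxcl2 lie far higher in red than in blue, the 3 Cxcl12 probes lie lower in red, and the Cxcr4 and Cxcl6 groups overlap.

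Cxcl1, the rodent ligand of CXCR2 often called KC or GRO, had normalized log2 signals of 3.27, 4.0 and 3.66 on M17, M24 and M25 and of -1.61, -1.98 and -2.13 on C4, C5 and C6. Every border zone array lay far above every sham array, with all 6 spots well above background. The lowest border zone array stood 4.87 above the highest sham array, while arrays spanned 0.74 within the border zone and 0.53 within sham. The log2 fold change was 5.55 ± 0.24 (SE, n = 3 arrays per group; 95% interval 4.96 to 6.13; limma adjusted p = 0.000650), a 46.8-fold rise. Against C4, the sham array of the same scan, it was 5.25, or 38.0-fold. It ranked 5th by log2 fold change among 11941 probes well above background on all 6 arrays. The call held in all 15 alternatives run, with log2 fold changes of 4.94 to 5.74.

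Cxcl2, a second CXCR2 ligand of macrophages and injured tissue, had signals of 1.62, 1.45 and 1.51 in the border zone. Sham arrays read -4.65, -6.07 and -5.63, and of these only C4 was well above background. The border zone arrays lay within 0.18 of each other and all stood more than 6 log2 units above the brightest sham array. In the fit it changed by 6.98 ± 0.36 on the log2 scale (95% interval 6.10 to 7.86; adjusted p = 0.000800). With the dim sham arrays raised to the lowest signal well above background on their array, the rise was at least 59.8-fold. Against C4 alone, which was measured, it was 6.18, or 72.4-fold. All 14 alternatives run kept the call, with log2 fold changes from 4.30 with normexp to 7.38 without C4.

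Cxcl1 and Cxcl2 were 2 of the genes at least 8-fold higher, which made up 0.518% of genes tested. Both kept an adjusted p of 0.0129 without M25, where 2.07% of genes were called higher and 1.57% lower. With scan as a block and M25 left out, an alternative chosen after seeing the data, Cxcl1 had an adjusted p of 0.0360 and Cxcl2 of 0.0197. In that setting 0.516% of genes were called higher and 0.0543% lower. The genes are close paralogs, and how far the probe of 1 also reads the other or Cxcl3 was not tested.

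Cxcl6, a further CXCR2 ligand that acts on neutrophils in rodents, read -3.03, -4.85 and -3.51 in the border zone and -6.56, -5.53 and -4.40 in sham. The groups overlapped, since sham C6 lay above border zone M24, and no sham spot was well above background. The log2 fold change of 1.70 ± 0.69 (95% interval 0.015 to 3.39) did not pass (adjusted p = 0.135), and it was -0.10 with normexp. With sham signals that lay under the lowest signal well above background raised to it, the group means differed by 2.33-fold. As the groups overlapped and no call was made, this does not show a rise. Of 14 alternatives 0 passed in limma, and 8 had an unadjusted p below 0.05.

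**Figure D2:**
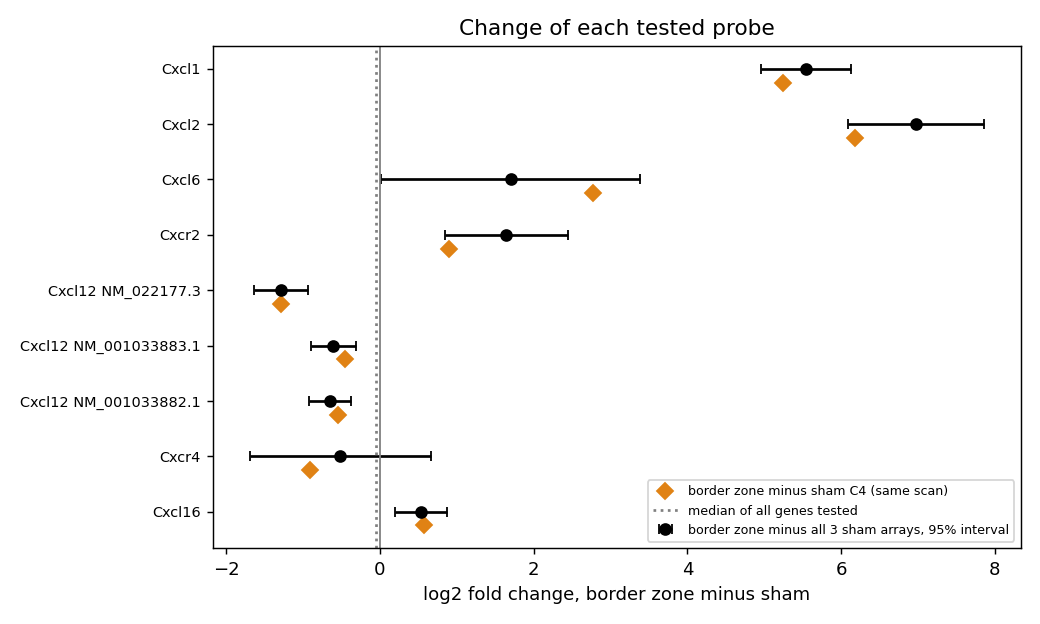
The log2 fold change, border zone minus sham (horizontal axis), of the 9 tested probes, as black points with 95% intervals over all 3 sham arrays and orange diamonds against sham C4 of the same scan. The dotted line is the median of all genes tested (-0.047), Cxcl1 and Cxcl2 lie far to its right at 5.55 and 6.98, and the Cxcr4 interval spans 0.

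The receptors of these ligands were dim in this tissue. Cxcr1, a neutrophil receptor related to CXCR2, had signals of -8.93, -7.38 and -9.13 in the border zone and -8.68, -6.21 and -6.03 in sham. No spot was well above background, so it was not tested and no fold is given. Cxcr2, the receptor that carries most neutrophil recruitment by these ligands in rodents, read -4.01, -4.15 and -4.08 in the border zone and -4.97, -6.17 and -6.02 in sham. The border zone arrays lay close together and above C4, and C5 and C6 were not well above background. Its change was 1.64 ± 0.33 on the log2 scale (95% interval 0.84 to 2.44; adjusted p = 0.0232) but -0.13 with normexp, which turned the direction. Set against the raised sham signals, Cxcr2 was at least 1.32-fold higher, and against C4, which was measured, 1.86-fold (log2 fold change 0.90).

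The Cxcr2 call held in 5 of 14 alternatives, whose adjusted p ran from 0.000526 to 0.699. It was lost without M17 (0.0871), M24 (0.0825), M25 (0.107), C5 (0.0684) or C6 (0.0599), with quantile normalization (0.0708), without the filter (0.0515), with normexp, and with scan as a block and M25 left out (0.158).

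Cxcl12, the ligand of CXCR4, was measured by probes to 3 RefSeq transcripts, and all 3 were lower in the border zone. The probe to NM_022177.3 read -0.75, -0.32 and -0.53 in the border zone and 0.76, 0.79 and 0.71 in sham. Sham arrays agreed within 0.088 across 3 scans, and every border zone array lay below them. This gave a log2 fold change of -1.29 ± 0.14 (95% interval -1.63 to -0.94; adjusted p = 0.00468), a 2.44-fold fall. Against C4 it was also -1.29. The call held in 14 of 15 alternatives, with adjusted p from 0.00126 to 0.137, and was lost with scan as a block and M25 left out. Without M25 alone the adjusted p was 0.0453.

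The other Cxcl12 probes moved less. The probe to NM_001033883.1 read 2.56, 2.67 and 2.54 in the border zone and 3.04, 3.26 and 3.28 in sham. Its groups did not overlap, and the log2 fold change was -0.61 ± 0.12 (95% interval -0.90 to -0.31; adjusted p = 0.0233), a 1.52-fold fall. The probe to NM_001033882.1 read 2.50, 2.59 and 2.52 in the border zone and 3.08, 3.30 and 3.18 in sham. Here too the groups did not overlap, at -0.65 ± 0.11 (95% interval -0.92 to -0.37; adjusted p = 0.0162), a 1.57-fold fall. Against C4 alone these 2 changes were -0.45 and -0.54.

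The first of these probes was the brightest for Cxcl12 and stood for the gene in counts. Its call held in 7 of 16 alternatives (adjusted p from 0.00580 to 0.371), and that of the other in 9 of 15 (0.00401 to 0.294). Both were lost without M17 (adjusted p = 0.0878 and 0.0690), M24 (0.0744 and 0.0630), M25 (0.138 and 0.114) or C5 (0.0783 and 0.0567). Median scaling (0.104 and 0.101) and scan as a block with M25 left out ended both calls too. The first was also lost without C6 (0.0522), without the filter (0.0573) and with scan as a block (0.0672). Averaging all 3 probes gave -0.85 with an adjusted p of 0.00836.

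The difference between the probe to NM_022177.3 and the other pair was set against its spread over arrays. On the log2 scale it was 0.68 lower in the border zone than in sham against NM_001033883.1 (-3.12 ± 0.16 against -2.44 ± 0.15, SD, n = 3), and the arrays did not overlap. Against NM_001033882.1 it was 0.64 lower (-3.07 ± 0.17 against -2.43 ± 0.10), again with no overlap. The exact permutation test, two-sided, gave p = 0.1 for each, the smallest that 3 against 3 arrays allow (0.15 adjusted over 3 pairs). The remaining pair differed by 0.041 (exact permutation p = 0.4).

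Cxcr4, the CXCL12 receptor of white blood cells, read 0.78, 2.32 and 1.75 in the border zone and 2.52, 2.45 and 1.43 in sham. The groups overlapped, since border zone M24 and M25 lay above sham C6, and M17 was lowest of all. Its log2 fold change was -0.51 ± 0.48 (95% interval -1.69 to 0.66; adjusted p = 0.474). That interval spans more than a 3-fold fall and more than a 1.5-fold rise. In limma 0 of 15 alternatives passed, 0 had an unadjusted p below 0.05, and the change ran from -0.97 to -0.10.

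Cxcl16, the membrane-bound ligand of CXCR6, read 1.71, 2.12 and 1.91 in the border zone and 1.34, 1.34 and 1.45 in sham. All border zone arrays lay above all sham arrays, by 0.26 at the closest. On the log2 scale the change was 0.54 ± 0.14 (95% interval 0.19 to 0.88; adjusted p = 0.0481), a 1.45-fold rise. This call held in 4 of 15 alternatives, with adjusted p from 0.0212 to 0.353. It was lost without M17 (0.0683), M24 (0.146), M25 (0.190), C5 (0.128) or C6 (0.0770), and with scan as a block, with M25 (0.122) or without it. It was also lost with quantile normalization (0.0637), normexp (0.0525), the authors' deposited table (0.0595) or no filter (0.0954).

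**Figure D3:**
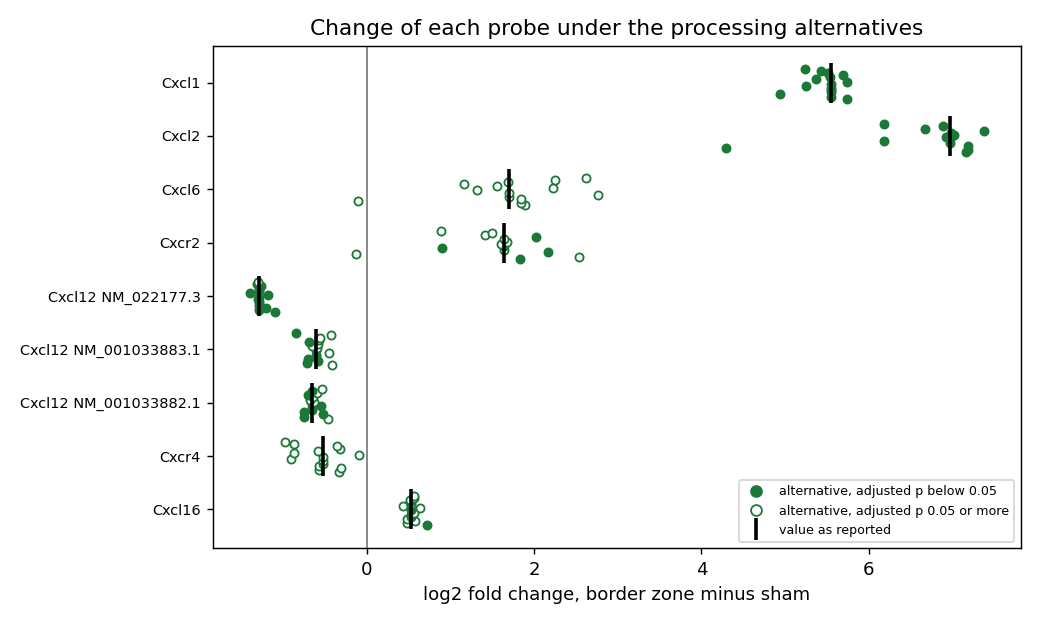
The log2 fold change, border zone minus sham (horizontal axis), of the 9 tested probes under each processing alternative, filled where the adjusted p was below 0.05 and open otherwise, with the reported value as a black bar. All Cxcl1 and Cxcl2 points are filled and lie between 4.30 and 7.38, while Cxcr2 and Cxcl6 each have 1 point left of 0.

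Over the 7 genes tested, 4 were called higher, beside 9.9% of all genes, and 1 lower, beside 11.9%. Groups did not overlap for 4 genes above and 1 below, beside 21.4% and 25.4% of all genes (46.8% together). The median log2 fold change was 1.64, against -0.047 over all genes tested. Cxcl2, Cxcl6 and Cxcr2 entered the test through the border zone alone, where they are brighter, so these counts and the median support nothing about the set. With scan as a block, 3 were called higher and 0 lower (1 lower at an unadjusted p below 0.05), beside 8.79% and 8.45% of all genes. Without M25, 2 were called higher and 0 lower in limma (4 and 1 unadjusted).

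In the gene table Cxcl2, Cxcl1, the unnamed coding gene LOC134481726, Cxcl3, Pf4, Ppbp and Cxcl6 lie in this order on chromosome 14, between Mthfd2l and Rassf6. LOC134481726 had no mapped probe. By log2 fold change Cxcl2 and Cxcl1 were at 6.98 and 5.55, Pf4, the platelet chemokine CXCL4, at 0.82, and Mthfd2l, a mitochondrial folate enzyme, at 0.30. Ppbp, which encodes another platelet chemokine, was above background on 2 arrays and Rassf6 on 3, and they read -0.60 and -0.61. Cxcl6, at the far end, stood at 1.70 with overlapping groups.

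Among 8159 genes well above background on all 6 arrays, the profile closest to Cxcl1 was that of Ccl7, a chemokine for monocytes, with a root mean square difference of 0.57 log2 units over the 6 arrays. Myc, a growth-promoting transcription factor, followed at 0.64 and Serpinb1a, an inhibitor of neutrophil proteases, at 0.69. These rose by less than Cxcl1, with log2 fold changes of 4.51, 4.37 and 4.25. Nearest to the NM_022177.3 probe of Cxcl12 were Aif1l (0.040), Inpp5j (0.047) and Trem2 (0.056), a receptor of macrophages, whose log2 fold changes were -1.28, -1.27 and -1.33.

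The genes nearest to the other Cxcl12 probes, all within 0.037, were Lin37, Lats2 and Naa35, and Tmem138, Prtfdc1 and Tspan9. For Cxcr4 they were the mast cell chymase Cma1 (0.18) and RT1-N2 (0.19). For Cxcl16 they were the complement protease C1s (0.034), the plasminogen activator Plat (0.049) and Cd302 (0.050). Likeness over 6 arrays in 2 groups is a description, as any gene with a similar change scores well.

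Genes that act around these chemokines were taken from 7 lists of 84 genes, of which 67 had a probe and 63 were tested. Of the 63, 25 were called higher and 2 lower, beside 9.9% and 11.9% of all genes tested, and without M25, 11 and 1. Of the 25, 20 were above background on all 6 arrays, and 5 entered through the border zone alone. With scan as a block and M25 left out, 1 was higher and 0 lower (26 and 2 at an unadjusted p below 0.05).

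**Figure D4:**
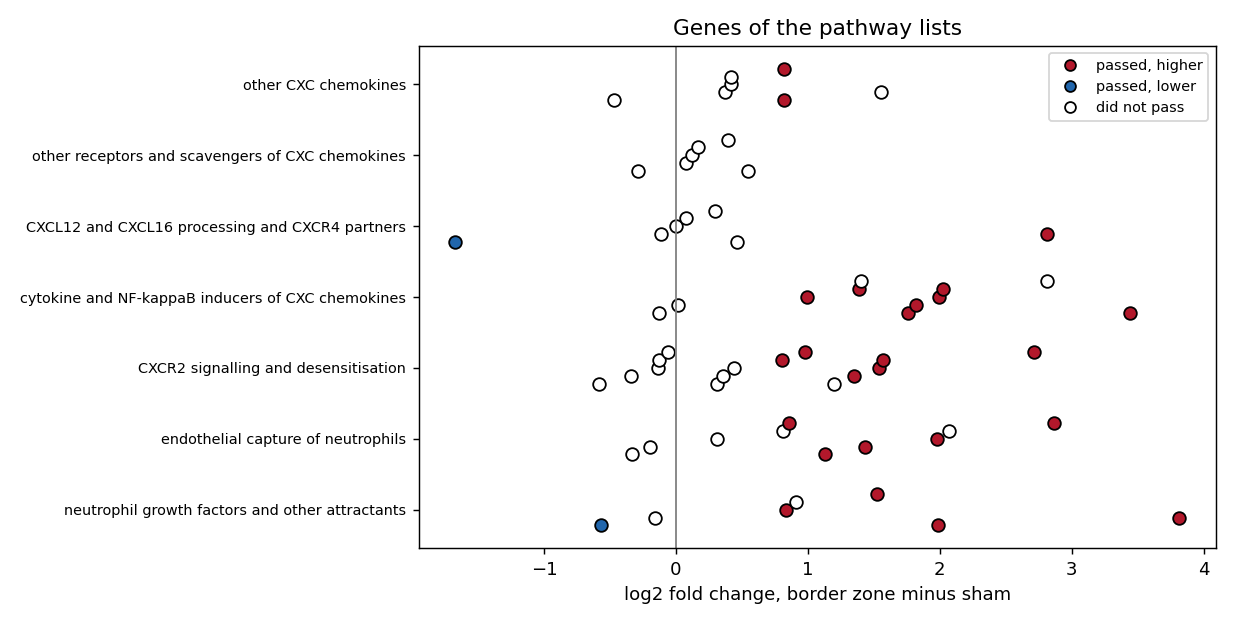
The log2 fold change, border zone minus sham (horizontal axis), of the tested genes of each of 7 lists around the CXC chemokines (rows), 1 point per gene, red where called higher, blue where called lower and open where neither. The inducer list holds 7 red points and no blue ones, and the list of other receptors and scavengers holds open points only.

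Other CXC chemokines moved little beside Cxcl1 and Cxcl2. Of 7 tested, 2 rose, 0 fell (also 0 at an unadjusted p below 0.05) and 5 did not pass, with a median log2 fold change of 0.42. Cxcl13, which draws B cells, rose by 0.82 ± 0.11 (adjusted p = 0.00712) and Pf4 by 0.82 ± 0.15 (adjusted p = 0.0187). Without M25 neither passed (adjusted p = 0.0682 and 0.108). The interferon-induced Cxcl10, named after its value was seen, read 0.31, 1.78 and 1.25 in the border zone and -0.013, -0.40 and -0.91 in sham, and did not pass (1.56 ± 0.42, adjusted p = 0.0531).

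No other receptor or scavenger of CXC chemokines was called. Of 6 tested 0 passed in limma, and 0 had an unadjusted p below 0.05, with a median of 0.14. The smallest p belonged to Cxcr3, the T cell receptor of CXCL9 and CXCL10, at 0.40 ± 0.23 (adjusted p = 0.257). Cxcr6, the CXCL16 receptor, and Ackr3, a scavenger of CXCL12, both named after their values were seen, stood at 0.16 ± 0.11 and 0.12 ± 0.25.

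Among genes that cut CXCL12 or CXCL16 or partner CXCR4, 1 of 7 rose, 1 fell and 5 did not pass (median 0.078). Dpp4, the membrane protease that clips and inactivates CXCL12, read -2.19, -1.62 and -1.98 in the border zone and -0.25, -0.29 and -0.23 in sham. Every border zone array lay below every sham array, with a log2 fold change of -1.67 ± 0.17 (adjusted p = 0.00385), a 3.19-fold fall. It passed without M25 too (adjusted p = 0.0380), in 14 of 15 alternatives in all (0.00118 to 0.118). Mmp9, a gelatinase stored in neutrophils that also cleaves CXCL12, rose at least 6.86-fold (2.81 ± 0.56, adjusted p = 0.0238), with 1.23 under normexp and an adjusted p without M25 of 0.106.

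The list of cytokines and NF-kappaB genes that induce these chemokines, or limit their messages, had 7 of 11 tested genes higher, 0 lower (also 0 unadjusted) and a median of 1.76. Interleukin 1 beta, Il1b, a direct inducer of Cxcl1 and Cxcl2, read 1.60, 2.29 and 2.02 in the border zone and -1.24, -1.58 and -1.61 in sham. It rose 10.9-fold without overlap (3.44 ± 0.21, adjusted p = 0.00124). The receptor Tnfrsf1a (1.99 ± 0.21, adjusted p = 0.00447) rose too. So did Zfp36 (2.03 ± 0.26, adjusted p = 0.00684) and Zc3h12a (1.82 ± 0.20, adjusted p = 0.00482), which encode proteins that promote the decay of cytokine and chemokine messages. Without M25, 5 of the 7 were called, and Zfp36 was not (adjusted p = 0.0510). Tnf, named after its value was seen, overlapped between groups at -0.13 ± 0.39 (adjusted p = 0.830).

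Of genes that carry or damp the CXCR2 signal, 6 of 15 rose, 0 fell (2 unadjusted) and 9 did not pass (median 0.44). Rgs1 (2.71 ± 0.32, adjusted p = 0.00532) and Rgs2 (1.35 ± 0.18, adjusted p = 0.00802), which speed the shut-off of G proteins, rose. So did Fgr, a Src-family kinase of myeloid cells (1.54 ± 0.13, adjusted p = 0.00232). With normexp Fgr stood at 0.64 and was not called, and Rgs1 stood at 2.04. Without M25, 3 of the 6 were called, and Rgs2 was not (adjusted p = 0.0603).

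Of genes for endothelial capture of neutrophils, 5 of 10 rose, 0 fell (also 0 unadjusted) and 5 did not pass (median 0.99). E-selectin, Sele, rose 7.29-fold (2.87 ± 0.27, adjusted p = 0.00321), and Icam1, the endothelial ligand of leukocyte integrins, 3.94-fold (1.98 ± 0.34, adjusted p = 0.0157). Only 2 sham arrays measured Sele well above background. On the leukocyte side the integrin chain Itgb2 (1.13 ± 0.14, adjusted p = 0.00699) rose. Without M25, 1 of the 5 was called, namely Sele (adjusted p = 0.0305). With normexp Sele stood at 1.63, and with scan as a block Icam1 was not called (adjusted p = 0.0993).

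Of neutrophil growth factors and other attractants, 4 of 7 rose, 1 fell and 2 did not pass (median 0.91). Csf3r, the G-CSF receptor of neutrophils, rose at least 6.23-fold (3.82 ± 0.13, adjusted p = 0.000411), with signals of -2.12, -2.06 and -2.11 in the border zone and -5.74, -6.10 and -5.91 in sham. With normexp its log2 fold change was 0.98 and the call was lost (adjusted p = 0.0951, the highest of 14 alternatives, from 0.000128). Csf3, which encodes G-CSF, rose 3.96-fold (1.99 ± 0.40, adjusted p = 0.0251). Against C4 its log2 fold change was 1.15, and with scan as a block it was not called (adjusted p = 0.0605), in a range over 15 alternatives of 0.00288 to 0.179. Leaving out M17, M24, M25, C5 or C6 also ended the Csf3 call. Alox5ap, which passes substrate to 5-lipoxygenase in leukotriene synthesis, rose (1.52 ± 0.18, adjusted p = 0.00531) while Alox5, 5-lipoxygenase itself, fell (-0.57 ± 0.12, adjusted p = 0.0283). Without M25, 2 of the 4 rises were called, Csf3r and Alox5ap, and the fall of Alox5 was not (adjusted p = 0.141).

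Markers of the cells that carry or make these chemokines were compared too, and not every list differed between the groups. Over all genes tested, 9.9% were called higher and 11.9% lower, and without M25 2.07% and 1.57%. Of 11 neutrophil markers with a probe 9 were tested, and 7 of these were called higher, 4 without M25. As 5 of the 7 were not measured on every sham array and entered through the border zone alone, this count supports nothing. The other 2, among them S100a8 at 5.21 ± 0.43 (adjusted p = 0.00229), were above background on all 6 arrays. The linear signal, in units of each array's 75th percentile, was also summed over all 11 markers with a probe, dim ones included. This sum was 5.84 to 6.60 in the border zone and 0.339 to 0.580 in sham. In the border zone it rested mainly on S100a8 (log2 signal 1.92 to 2.09) and Lcn2 (-0.82 to 0.93), the brightest of the 11. Ngp (0.05 ± 0.39, limma adjusted p = 0.933) and Retnlg (1.49 ± 0.42, adjusted p = 0.0573) were tested and did not pass. Fpr1, Pglyrp1, Mmp8, Retnlg and Prtn3 were not well above background on any sham array, and Prtn3 on no array. Their part in the values of Cxcr2 and Cxcl2 was not tested.

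Monocyte and macrophage markers summed to 62.3 to 65.2 in the border zone and 24.6 to 33.5 in sham, with 4 of 9 tested higher, 2 lower (3 and 0 without M25, or 4 and 3 unadjusted) and Cd163 on no array above background. Of the 4, 1 was not measured on every sham array and entered through the border zone alone. Of the 2, Cx3cr1 was well above background on 1 sham array. Its C5 and C6 signals lay under the lowest signal well above background there. Lysozyme, Lyz2, made up 47.1 to 50.2 of the border zone sum and 12.5 to 19.3 of the sham sum, and the rest came to 14.6 to 15.2 against 12.1 to 14.2. Fibroblast and mural cell markers, from cells known to make CXCL12, summed to 70.8 to 81.9 against 99.95 to 128 in sham, with 1 of 8 higher and 2 lower (1 and 0 without M25, or 1 and 3 unadjusted). The 2 lower were the collagens Col3a1 (log2 fold change -1.84) and Col1a2 (-1.02), and the 1 higher was Tcf21 (1.84). Col3a1 read 4.20, 3.05 and 3.69 in the border zone and 5.71, 5.37 and 5.37 in sham. Dcn, also bright, read 5.23, 5.22 and 5.17 against 5.14, 4.74 and 4.55. The lower sum thus does not hold for every marker, and does not show fewer of these cells. Endothelial markers summed to 31.1 to 36.4 against 35.3 to 40.8, with 0 of 6 higher (1 unadjusted) and 2 lower (0 and 0 without M25, or 0 and 2 unadjusted). Their part in the fall of Cxcl12 was not tested. Lymphocyte markers summed to 3.17 to 4.28 against 3.05 to 3.29, with 1 of 5 tested higher (0 without M25, or 1 unadjusted). Platelet and red cell markers summed to 8.38 to 63.3 against 53.4 to 70.6, with 1 of 6 higher, Pf4 (0 without M25, or 1 unadjusted). The low end was array M24, where the haemoglobin gene Hbb read 2.68 on the log2 scale. Hbb read 5.90 on M17, 5.47 on M25 and 5.61 to 6.05 in sham. Of 10 cardiomyocyte markers 0 were called in limma (0 unadjusted), at sums of 665 to 700.1 against 679 to 877. The labelled tissue thus showed heart muscle on every array. Central nervous markers summed to 1.24 to 1.61 in the border zone and 2.04 to 16.3 in sham. On the log2 scale that sum was 1.03 on C4, 3.66 on C5 and 4.03 on C6. Whether C5 and C6 hold heart tissue only was not tested.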

How the data were processed

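Total RNA was labelled with Cy3 and hybridised to 1-colour arrays, per the labels' protocols. Spot signals are intensity values from Agilent Feature Extraction 11.0.1.1, per the file headers, background-subtracted but not normalized between arrays. The other columns used are flags of 0 or 1 per spot, as deposited. The authors' deposited table holds log2 values with near-identical medians, treated as quantile-normalized, and served as an alternative only (24415 of its 24529 probes matched). All columns of per-sample values had a sample.

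Control and outlier spots were left out and spots of a probe averaged, leaving 24614 of 24684 probes. A probe was tested when every array of either group showed it well above background. The border zone was compared with sham in limma 3.58.1 (R 4.3.3; lmFit, eBayes, two-sided), with Benjamini-Hochberg adjustment over all 17943 probes. A gene was counted by its probe with the highest mean. Dim-group arrays not well above background were raised to the lowest signal well above background on the array, where they lay under it. Folds from raised signals are given as "at least". That wording allows for the dim signals only, not for the spread of arrays or another background correction. With normexp some changes were smaller than the fold given. Log2 fold changes are not raised. Scan as a block equals a comparison with C4 alone: its 2 residual degrees of freedom come from the border zone, with no sham spread. Normexp (offset 50) used the median foreground signal, because the mean column planned for it was not among the columns used here. The script was tested on simulated data. Likeness is the root mean square difference of array-centred profiles. Promoters and gene names came from RefSeq tables (GRCr8), while the headers name rn4, so no array coordinates are given. Exact tests and tables used Python 3.11.15 with scipy 1.17.1 and pandas 2.3.3, and figures matplotlib 3.10.9.

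The genes and lists were chosen with earlier results of these data known. Every member with a probe is named, up to 4 called genes of a list by absolute log2 fold change (or the smallest p), and the 3 closest genes by likeness. Some genes taken by this rule are not reported here. Cell type markers came from 8 lists.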

Additional observations from a re-analysis of the deposited data

How the results depend on the processing

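The choice of settings changed counts more than directions. In limma, 1615 probes were called higher, against 1004 with normexp, 791 without a filter on dim probes, 66 with scan as a block and M25 left out, and 284 to 3738 when 1 array was left out. The 1844 lower calls became 928 with median scaling, 1035 without a filter, 11 with scan as a block and M25 left out, and 222 to 3693 when 1 array was left out. Of the 4 genes of the set called higher, 2 were called with quantile normalization, normexp, no filter, only probes well above background on all 6 arrays, or scan as a block with M25 left out, and 2 to 4 when 1 array was left out. The 1 called lower, Cxcl12 by its brightest probe, became 0 with median scaling, no filter or scan as a block (1 at an unadjusted p below 0.05 in each), 0 with scan as a block and M25 left out (0 unadjusted), and 0 to 1 when 1 array was left out. Higher calls among the 63 list genes numbered 25, against 11 to 31 when 1 array was left out and 1 with scan as a block and M25 left out. Lower calls among them numbered 2, against 1 with median scaling and with no filter, 0 with scan as a block and M25 left out (2 unadjusted), and 1 to 4 when 1 array was left out. Leaving out M25 gave the lowest of the ranges for probes and for list genes called higher. Cxcr2 turned to -0.13 with normexp, and Itgam, called higher at 0.86, to -0.53. For other results that moved, the cause was not tested, except that a requirement of signal on all 6 arrays tests 4 genes of the set in place of 7. Cxcl1 and Cxcl2 kept their direction and call in every alternative run.

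No paired analysis was possible because the groups share no replicate numbers. With 3 arrays per group and C5 and C6 above background for fewer probes than C4, small changes in dim genes such as Cxcr1, Cxcr2 and Cxcl6 cannot be resolved. A missed threshold there does not show that the groups were alike.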
